A study of Homo sapiens with 6 samples.

Results

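The keratin genes of LNCaP cells were examined in 2 windows of the Hi-C maps, chr12:52200001-53680000 and chr17:38520001-40000000 (hg19). The windows were chosen by position, as the surroundings of the type II and the type I keratin clusters. They held 37 bins of 40 kb each, 74 of the 77403 bins of the genome, and all 74 were among the 63217 usable bins. Within them 8 genes were followed: KRT8, KRT18, KRT7 and KRT19, which are keratins of simple and luminal epithelium, and KRT5, KRT14, KRT15 and KRT17, which are keratins of basal epithelial cells.

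Keratins form intermediate filaments as pairs of 1 type I and 1 type II chain, and the genes of each type lie side by side in a cluster. KRT18 is the exception, a type I gene that sits beside its partner KRT8 in the type II cluster. Luminal prostate cells and LNCaP, a line from a prostate cancer metastasis, are known to make keratins 8 and 18, whereas basal prostate cells make keratins 5 and 14, and most other genes of the clusters serve epidermis and hair. Expression was not measured here, so these roles are background.

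In Hi-C, chromatin is cross-linked and digested, joined ends are sequenced, and a read pair records that its ends lay close together in a nucleus. LNCaP cells had received 20 nM of a Non-Target siRNA pool (control siRNA) or of a pool against CTCF (CTCF siRNA), a DNA-binding protein that marks many borders of chromatin domains, and were taken at 144 h. Chromatin was cut with BglII, and the remaining amount of CTCF was not analysed here. The authors pooled 2 control and 4 CTCF siRNA libraries into 1 map per condition. The labels number the CTCF siRNA libraries as replicates 1, 2, 1.1 and 2.1, and whether the last 2 are repeats of the first 2 is not given in the sources used here. With 1 map per condition, no difference could be set against the spread between replicates, and no p-value is given. Every interval and SD covers counting error only.

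The maps held 26174660 read pairs in control and 87657914 in CTCF siRNA. Bins of the type II window had a median of 666 contacts on their own chromosome in control and 4582 in CTCF siRNA, a median ratio of 6.77. The type I window had medians of 339 and 2182, with a ratio of 5.82, whereas all usable bins had a ratio of 3.60. Median GC content was 49.9% in the type II window, 42.9% in the type I window and 39.5% over all usable bins. The expected number of contacts for a pair of bins therefore took the distance on its chromosome and a coverage factor for each bin in each map.

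The CTCF core motif, searched for on both strands under that name, was found 17 times in the type II window and 9 times in the type I window. It was present in 35.1% and 18.9% of their bins and in 13.2% of all usable bins. A match describes the sequence and is not evidence of bound protein. The matches in bins that hold a TAD edge are printed because the borders below turn on these bins, and the matches of the bin before KRT80 and of the KRT78 bin because these bins formed the pair furthest above expectation among the better covered pairs of the type II window. Each is read 5′ to 3′ on its own strand of hg19, with the core in capitals and 9 bases on either side.
chr12:52374284-52374313, minus strand, intron of ACVR1B: gcttattagCCACTAGAGGGCagtgctgtg
chr12:52387051-52387080, plus strand, intron of ACVR1B: cgagtctaaCCACTAGAGGGCatttctgca
chr12:52398007-52398036, plus strand, between ACVR1B and TAMALIN: gactcatggCCACCAGAGGGCataaccact
chr12:52557871-52557900, plus strand, between SMIM41 and KRT80: ttgtcacggCCAGCAGAGGGCagaggttgc
chr12:53273402-53273431, minus strand, between KRT78 and KRT8: ccggcctttCCAGCAGGTGGCgggttccac
chr12:53374768-53374797, minus strand, between KRT18 and EIF4B: cctagaaggCCACCAGGGGGCagagggagg
chr17:39804308-39804337, minus strand, between KRT17 and EIF1: ccaagatggCCAGCAGAGGGCgctcctgct
chr17:39822311-39822340, minus strand, between KRT17 and EIF1: tgggcccggCCAGCAGAGGGCgccgcgagc

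The genes studied lay at both ends and in the middle of the type II cluster, and at 1 end of the type I cluster. The type II cluster ran from KRT80 to KRT18 over 784 kb with 27 protein-coding keratin genes in 20 bins. KRT18 (chr12:53342655-53346690, plus strand) was the last of these 27 by transcript start and KRT8 (chr12:53290971-53343738, minus strand) the one before it. The annotated span of KRT8 reaches into KRT18, so the bin of KRT18 also holds part of KRT8. KRT5 (chr12:52908359-52914314, minus strand), the type II keratin of basal cells, was number 13 of 27. KRT7 (chr12:52626304-52645970, plus strand), a keratin of glandular and ductal epithelium, was number 2 at the opposite end from KRT18.

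The type I cluster ran from KRT222 to KRT17 over 970 kb, with 28 keratin genes, 34 genes of keratin-associated hair proteins and 25 bins. KRT15 (chr17:39669997-39678781), a basal and stem-cell keratin, KRT19 (chr17:39679869-39684560), a simple-epithelial keratin, KRT14 (chr17:39738531-39743147), the partner of KRT5, and KRT17 (chr17:39775694-39781094), a keratin of injured and appendage epithelium, all on the minus strand, lay in 4 neighbouring bins. KRT17 was the last of the 62 genes. At 40 kb the luminal KRT19 thus lay among the basal genes, and KRT15 and KRT19 were measured in adjoining bins.

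Domain lists were compared first. TADs are stretches with more contacts inside than across their ends, and the edges of the deposited lists fall in the middle of 40 kb bins, so a position is known to about 20 kb. In control the type II cluster lay in 1 TAD from 51.74 to 53.38 Mb, which ended 37.1 kb past the KRT18 transcript start, and the next TAD ran to 53.90 Mb. In CTCF siRNA the cluster lay in a TAD from 52.38 to 53.42 Mb, followed by a TAD to 53.82 Mb. The edge after KRT18 was therefore in both lists within 40 kb. The edge at 52.38 Mb, in the ACVR1B gene for an activin receptor, was in the CTCF siRNA list alone and split off the part to the left that the control TAD had included.

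In control the type I cluster lay in a TAD from 38.70 to 39.82 Mb, and the next TAD began at 39.86 Mb. In CTCF siRNA the TAD began at the same 38.70 Mb, in the bin of CCR7, and ended at 39.74 Mb, inside the KRT14 gene. The following TAD began at 39.82 Mb, which left KRT17 outside any TAD of that list. Counting facing edges at most 100 kb apart as 1 boundary, 3 boundaries of the windows were shared, 0 were lost and 1 was gained.

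Contacts within the type II cluster exceeded expectation in both maps. In control 4496 contacts were counted between its bins against 3116 expected, 1.44 times (95% exact Poisson interval 1.40 to 1.49). In CTCF siRNA 30767 were counted against 23459, 1.31 times (1.30 to 1.33). The middle 50% of 2918 stretches of the same length on the autosomes lay from 0.902 to 1.09 in control and from 0.885 to 1.04 in CTCF siRNA. The CTCF siRNA value was 0.909 times that of control (exact conditional interval 0.881 to 0.938), and 11.8% of the stretches had a ratio as low. Without the coverage factors the cluster had 2.57 times the expected contacts in control and 4.14 times in CTCF siRNA, and the ratio of 1.61 was in the opposite direction.

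**Figure D1:**
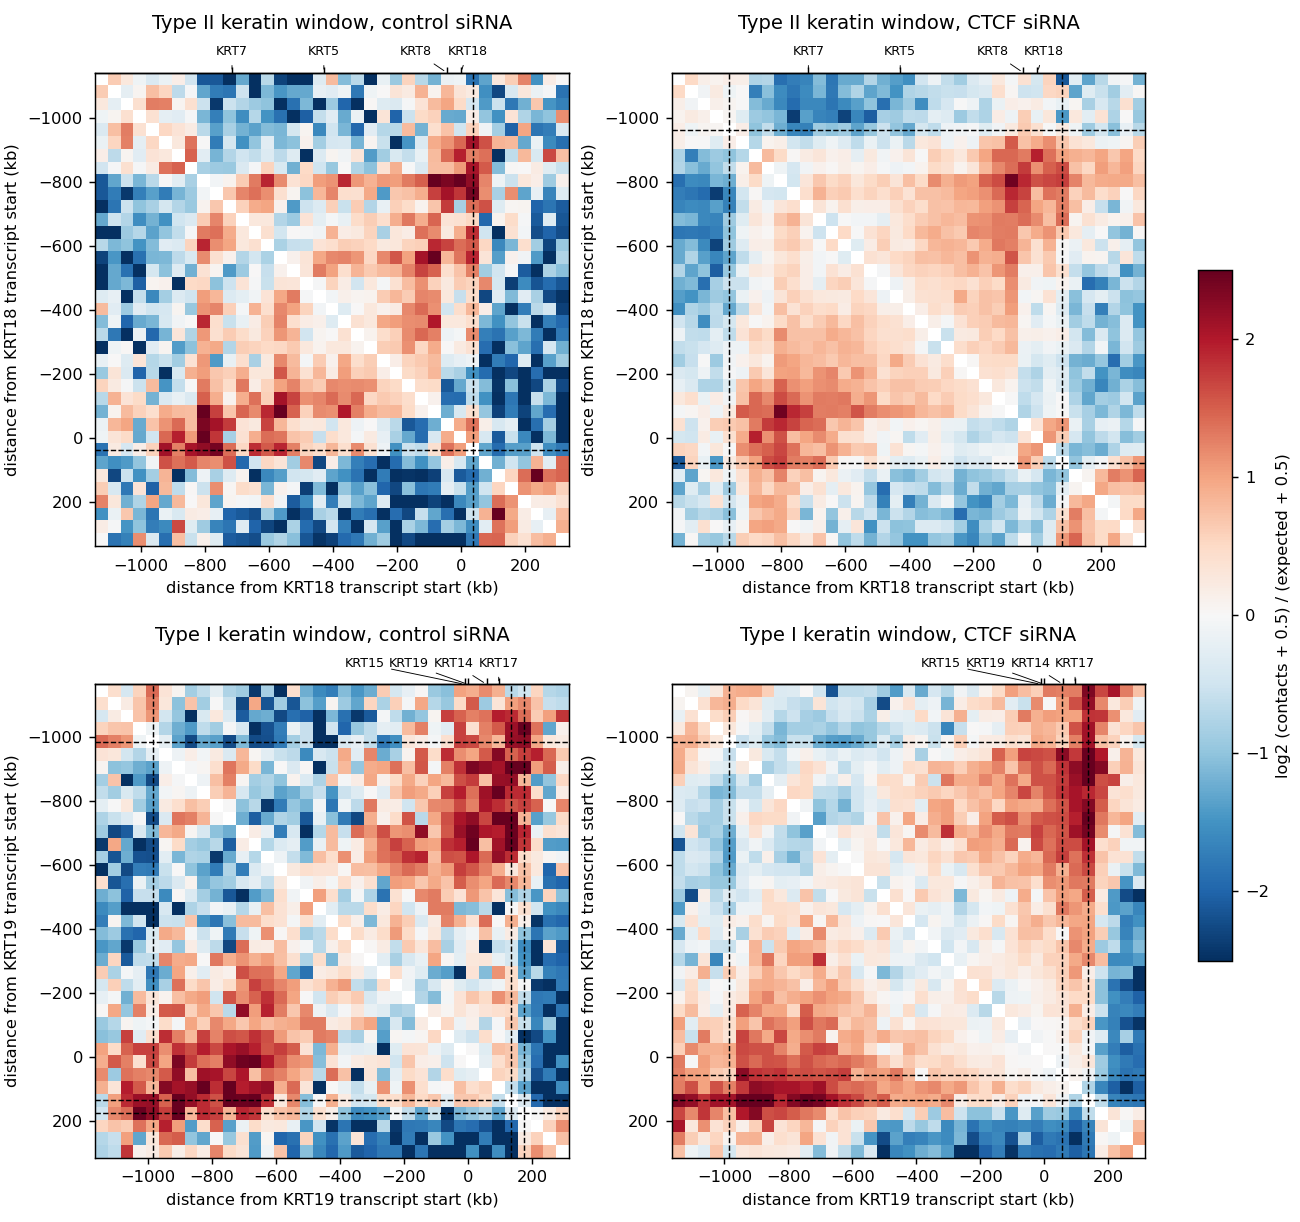
Contacts over expected in the type II (upper) and type I (lower) keratin windows for control and CTCF siRNA, as log2 of contacts plus 0.5 over expected plus 0.5 for each pair of 40 kb bins, with axes in kb from the KRT18 or KRT19 transcript start, dashed lines at TAD edges of that map's list and member genes named above. Red pairs far from the diagonal join KRT8 and KRT18, and KRT15 to KRT17, to the left side of their window. Taken as whole blocks, these are paler in CTCF siRNA. For KRT8 and KRT18 with FIGNL2 to SMIM41, the ratio without the bin before KRT80 was 0.915 (0.678 to 1.26). Without coverage factors the ratio of that whole block was 1.25.

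KRT8 and KRT18 contacted the left of the window, keratin genes included, more than distance and coverage gave, and the keratins directly beside them less. With the 9 bins from FIGNL2 to SMIM41, a stretch that includes the receptor genes ACVRL1 and ACVR1B and the nuclear receptor gene NR4A1, 94 contacts were counted in control against 30.7 expected, 3.06 times (2.48 to 3.75). In CTCF siRNA 535 were counted against 246, 2.17 times (1.99 to 2.36). The ratio of the maps was 0.709 (0.569 to 0.893). Of these contacts 45 in control and 159 in CTCF siRNA came from 1 bin without protein-coding genes, directly before KRT80. The remaining bins had 49 contacts against 23.8 expected in control, 2.06 times (1.52 to 2.72), and 376 against 199 in CTCF siRNA, 1.89 times (1.70 to 2.09), and their ratio of 0.915 (0.678 to 1.26) included no difference. Of 33553 autosomal places of the same shape, 1.77% reached the control value of the whole block and 1.27% the CTCF siRNA value. Their median ratio of the maps was 1.12, and 13.9% had a ratio as low. Without coverage factors the contacts exceeded expectation in both maps, but the ratio of the maps turned to 1.25.

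With the 6 bins from KRT80 to KRT82, the keratins at the opposite end of the cluster, KRT8 and KRT18 had 81 contacts in control against 32.8 expected, 2.47 times (1.96 to 3.07). In CTCF siRNA they had 505 against 265, 1.91 times (1.74 to 2.08), with a ratio of 0.771 (0.609 to 0.988). These 6 bins were unlike. The ratio was 0.527 (0.304 to 0.969) for the KRT80 bin, 0.483 (0.293 to 0.833) for that of KRT85 alone and 0.640 (0.402 to 1.06) for the last. It was 1.11 for the KRT7 bin, and 1.83 and 1.08 for the bins after it, with intervals that included 1. The value without coverage factors was not computed for this block.

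The 12 bins from KRT75 to KRT78 lie directly beside KRT8 and KRT18 and include KRT5. With these bins KRT8 and KRT18 had 166 contacts in control against 248 expected, 0.669 times (0.571 to 0.779). In CTCF siRNA the value was 0.758 (0.719 to 0.799), with a ratio of 1.13 (0.965 to 1.34) that included no difference. The block joined unlike bins. The nearby bin of KRT76 and KRT3 had 0.291 times (0.126 to 0.574) in control and 0.668 times (0.568 to 0.780) in CTCF siRNA, a ratio of 2.29 (1.14 to 5.41). The KRT5 bin, further away, had 0.925 times (0.339 to 2.01) and 0.995 times (0.746 to 1.30), a ratio of 1.08 (0.463 to 3.06). Without coverage factors the CTCF siRNA value was above expectation at 1.84, the control value was 0.912 and the ratio was 2.02. On the other side the 8 neighbouring bins had 1.05 times the expected contacts (0.889 to 1.23) in control and 1.23 times (1.16 to 1.30) in CTCF siRNA, and this value joined unlike bins. The bin directly after KRT18 lies before EIF4B and holds no protein-coding gene. With it there were 107 contacts in control against 47.7 expected, 2.24 times (1.84 to 2.71). In CTCF siRNA there were 597 against 285, 2.1 times (1.93 to 2.27). With the 7 bins that hold EIF4B to ESPL1 there were 43 against 95.1, 0.452 times (0.327 to 0.609), and 621 against 704, 0.883 times (0.815 to 0.955), a ratio of 1.95 (1.43 to 2.72). Over 400 kb on either side, the log2 of the keratin side over the other side was -0.68 ± 0.17 (counting SD) in control and -0.69 ± 0.06 in CTCF siRNA, a change of -0.01 ± 0.18. Without contacts between adjoining bins this lean away from the keratins was near 0 in control, at -0.02, and smaller in CTCF siRNA, at -0.31. Without coverage factors the values were -0.07 and 0.04.

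Single bins differed in the side they leaned to. The KRT78 bin had a log2 of left over right contacts of 1.80 in control and 1.0 in CTCF siRNA, so it faced the keratins. The next bin, that of KRT8, had -1.27 ± 0.22 and -0.75 ± 0.08, and the KRT18 bin 0.04 ± 0.20 and -0.50 ± 0.07. The bin after KRT18 leaned to the keratins again, with 2.07 and 1.20. The pair of the KRT8 and KRT18 bins had 49 contacts against 25.4 expected in control, 1.93 times (1.43 to 2.55), and 246 against 193 in CTCF siRNA, 1.27 times (1.12 to 1.44), with a ratio of 0.660 (0.484 to 0.916).

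The pair furthest above expectation in the type II window, among pairs with enough contacts expected, spanned the keratin genes from KRT80 to KRT78. The bin before KRT80 and the KRT78 bin, 720 kb apart, had 95 contacts in control against 9.44 expected, 10.1 times (8.14 to 12.3). In CTCF siRNA they had 310 against 57.3, 5.41 times (4.83 to 6.05), a ratio of 0.538 (0.426 to 0.684). Among 354 pairs of the window with at least 5 contacts expected in each map this pair ranked 1 in both maps. It was also the highest in both maps of 332 such autosomal pairs at 720 kb. This pair was picked after its values were seen. The motif matches printed for these bins lie on the plus strand before KRT80 and on the minus strand after KRT78, so that they point towards each other.

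The same bin before KRT80, part of the left block above, also met KRT8 and KRT18. Their contacts numbered 45 against 6.91 expected in control, 6.51 times (4.75 to 8.71), and 159 against 46.8 in CTCF siRNA, 3.39 times (2.89 to 3.96). The ratio was 0.522 (0.373 to 0.743). With the bin after KRT18, which holds the border match, the bin before KRT80 had 5.11 times the expected contacts in control (3.12 to 7.89) and 3.26 times in CTCF siRNA (2.51 to 4.15), with a ratio of 0.637 (0.381 to 1.11).

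KRT7 and KRT5 were measured with few contacts to the other members. KRT7 and KRT8 had 8 contacts in control against 2.03 expected, and 38 against 13.6 in CTCF siRNA, 2.79 times (1.97 to 3.83). KRT7 and KRT18 had 1 contact against 2.16, and 31 against 15.5, 2.0 times (1.36 to 2.84). KRT7 and KRT5 had 5 contacts against 6.42, and 57 against 42.8, 1.33 times (1.01 to 1.73). KRT5 had 4 contacts with KRT8 and 2 with KRT18 in control. In CTCF siRNA it had 0.958 times the expected contacts with KRT8 (0.614 to 1.43) and 1.03 times with KRT18 (0.689 to 1.48). The ratio between the maps had an interval that included 1 for each of these pairs of members, and the control depth could not resolve a change. With the KRT78 bin, KRT7 had 1.66 times (0.760 to 3.16) in control and 3.29 times (2.72 to 3.94) in CTCF siRNA.

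Contacts within the type I cluster were also above expectation. Between its bins there were 3430 against 2834 expected in control, 1.21 times (1.17 to 1.25), and 18857 against 15656 in CTCF siRNA, 1.20 times (1.19 to 1.22). The ratio was 0.995 (0.959 to 1.03), an interval that included no difference. The middle 50% of 2340 stretches of that length lay from 0.912 to 1.07 in control and from 0.898 to 1.04 in CTCF siRNA. Blocks inside it differed in opposite directions.

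Relative to expectation, the 4 bins from KRT15 to KRT17 had more contacts with the far keratins than with the near ones. With the 4 bins from KRT33A to KRT35 beside them the values were 1.16 (1.05 to 1.28) in control and 1.17 (1.13 to 1.22) in CTCF siRNA. With the 9 bins from KRT222 to KRT40 at the opposite end, which hold the epidermal KRT10 and the intestinal KRT20, 397 contacts were counted in control against 100 expected, 3.95 times (3.57 to 4.36). In CTCF siRNA the value was 2.76 (2.64 to 2.88), with a ratio of 0.697 (0.625 to 0.778). Of 55960 autosomal places of that shape, 0.0286% reached the control value and 0.0161% the CTCF siRNA value, and 10.6% had a ratio as low. The 7 bins from TOP2A to CCR7 lie beyond the cluster and mostly beyond the TAD edge at 38.70 Mb. The bin after that of the edge, with part of CCR7, and the last bin, with part of SMARCE1, lie inside the TAD of the cluster. With these 7 bins the values were 3.42 (2.91 to 4.01) and 2.43 (2.28 to 2.59), with a ratio of 0.710 (0.599 to 0.847). Of 46194 autosomal places of that shape, 12.9% had a ratio as low. Without coverage factors the values were 7.05 and 5.37 with KRT222 to KRT40, and 7.28 and 6.19 with TOP2A to CCR7. With the distance decay of all autosomes they were 3.26 and 2.42, and 2.49 and 1.99. The excess with the far keratins was not particular to KRT15 to KRT17. The bins from KRT33A to KRT35 had 2.51 times the expected contacts with KRT222 to KRT40 in control (2.21 to 2.83). In CTCF siRNA they had 1.88 times (1.77 to 1.99), a ratio of 0.750 (0.655 to 0.861).

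The 8 bins of keratin-associated genes between them behaved differently. Their contacts with the bins from KRT15 to KRT17 were 0.955 times the expected number in control (0.817 to 1.11) and 1.49 times in CTCF siRNA (1.41 to 1.56), a ratio of 1.56 (1.33 to 1.83). Of 56827 autosomal places with the shape of these 2 blocks, 11.4% had a ratio as high. Contacts of these 8 bins with TOP2A to CCR7 had a ratio of 1.58 (1.21 to 2.11). Coverage was low there, with 130 to 630 contacts per bin in control and 384 to 3348 in CTCF siRNA, and GC content was 38.4 to 42.6%. Without coverage factors the contacts with KRT15 to KRT17 were 1.35 times the expected number in control and 1.98 times in CTCF siRNA, a ratio of 1.47.

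**Figure D2:**
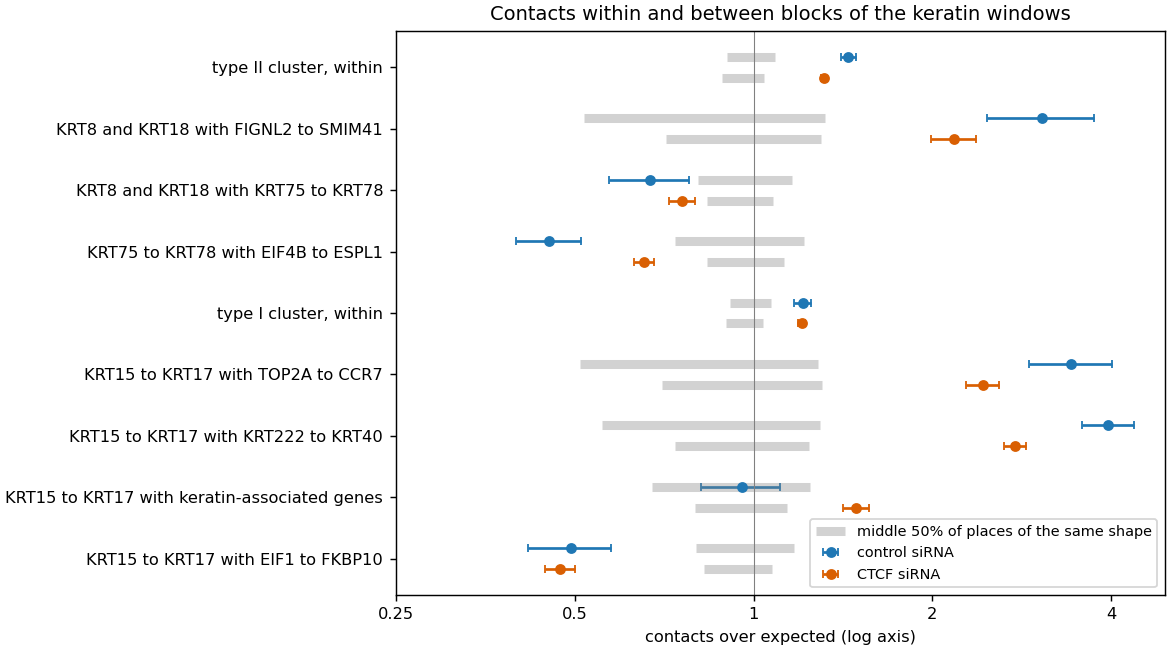
Contacts over expected on a log axis within the clusters and between blocks of bins in control (blue) and CTCF siRNA (orange), with 95% exact Poisson intervals, and grey bars for the middle 50% of autosomal stretches or places of the same shape; neighbouring blocks include the gene-free bin beside the cluster. The far contacts of KRT8 and KRT18 and of KRT15 to KRT17 lie above the grey bars in both maps and lower in CTCF siRNA. For KRT8 and KRT18 the value without coverage factors was higher in CTCF siRNA, at 5.06 against 4.04 in control. The contacts of KRT75 to KRT78 with EIF4B to ESPL1 (not in CTCF siRNA without coverage factors) and of KRT15 to KRT17 with EIF1 to FKBP10 lie below 1.

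Within the group of 4 bins the luminal KRT19 was measured against 3 basal genes. It had 1.0 times the expected contacts with KRT15 in both maps. With KRT14 it had 0.852 times (0.685 to 1.05) in control and 0.913 times (0.849 to 0.980) in CTCF siRNA, and with KRT17 1.33 times (1.1 to 1.61) and 1.1 times (1.02 to 1.20). The ratios of the maps for these 3 pairs had intervals that included 1. Between the KRT15 and KRT19 bins and the KRT14 and KRT17 bins there were 273 contacts in control against 245 expected, 1.12 times (0.988 to 1.26), and 1844 against 1821 in CTCF siRNA, 1.01 times (0.967 to 1.06). The ratio was 0.907 (0.798 to 1.03). Without coverage factors these values were 3.18 and 3.93. Of the basal genes among themselves, KRT14 and KRT17 had 1.48 times (1.22 to 1.78) in control and 1.06 times (0.979 to 1.14) in CTCF siRNA, a ratio of 0.714 (0.585 to 0.878). KRT15 and KRT17 had 1.70 times (1.27 to 2.23) and 1.18 times (1.04 to 1.33), a ratio of 0.692 (0.513 to 0.95). KRT15 and KRT14 had 0.812 times (0.503 to 1.24) and 0.997 times (0.871 to 1.14).

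Contacts past the right end were below expectation from the near bins and above it from the far ones. From KRT15 to KRT17 toward EIF1 to FKBP10, which include the translation factor EIF1 and the junction protein gene JUP, there were 154 contacts in control against 313 expected, 0.492 times (0.417 to 0.576). In CTCF siRNA there were 1139 against 2410, 0.473 times (0.446 to 0.501). The ratio was 0.960 (0.811 to 1.14). From KRT222 to KRT40 toward the same bins the values were 2.26 (1.84 to 2.76) in control and 1.94 (1.79 to 2.1) in CTCF siRNA, and from TOP2A to CCR7 they were 3.81 (3.03 to 4.74) and 2.5 (2.27 to 2.74). Of the 154 control contacts of KRT15 to KRT17, 104 came from the bin directly after KRT17, which holds no protein-coding gene. With the 4 bins that hold EIF1 to FKBP10 there were 50 contacts against 218 expected in control, 0.229 times (0.170 to 0.302), and 501 against 1643 in CTCF siRNA, 0.305 times (0.279 to 0.333), a ratio of 1.33 (0.994 to 1.82).

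In the type II cluster the bins from KRT75 to KRT78 had 0.453 times (0.398 to 0.513) the expected contacts with the 8 bins after KRT18 in control and 0.654 times (0.629 to 0.680) in CTCF siRNA, a ratio of 1.44 (1.27 to 1.65). Of 57023 autosomal places of that shape, 10.1% had a ratio as high. Without the bin directly after KRT18 the values were 0.268 (0.221 to 0.321) and 0.592 (0.566 to 0.619), a ratio of 2.21 (1.83 to 2.69). Whether the ratios differed between the clusters was not tested. Without coverage factors the full block after KRT18 had 0.693 in control and 1.66 in CTCF siRNA, above expectation, a ratio of 2.39. The full block after KRT17 had 0.705 and 0.930 without them, a ratio of 1.32.

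Insulation values described the borders bin by bin. Here contacts that span a bin are divided by those expected from distance alone, and set on a log2 scale against the same quantity inside its flanks of 400 kb. A low value means few contacts across the bin. In the type II window 11 of 37 bins rose by at least 0.5 after CTCF siRNA and 0 fell by as much. In the type I window 5 rose and 4 fell. Over all 61617 bins with a value, 12.9% rose and 3.78% fell by that much. Among the simple-epithelial genes the KRT8 bin, from -1.70 to -1.03, and the KRT18 bin, from -1.73 to -1.03, were past 0.5, with changes of 0.67 ± 0.09 and 0.70 ± 0.10. These bins are neighbours and share most of the contacts counted.

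The other members changed less. KRT7 had -0.01 in control and 0.01 in CTCF siRNA, and KRT19 had -0.06 and 0.20, a change of 0.26 ± 0.09. None of the 4 basal genes was past 0.5. KRT5 had 0.55 and 0.59, KRT15 0.18 and 0.41, KRT14 0.00 in both, and KRT17 -1.27 and -1.13. The order from the most to the least insulated in control was KRT18, KRT8, KRT17, KRT19, KRT7, KRT14, KRT15 and KRT5. KRT18 and KRT8 differed by less than their counting SD, as did KRT19, KRT7 and KRT14. The 4 bins that fell by at least 0.5 in the type I window were all bins of keratin-associated genes. With balanced counts 1 bin fell by that much.

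**Figure D3:**
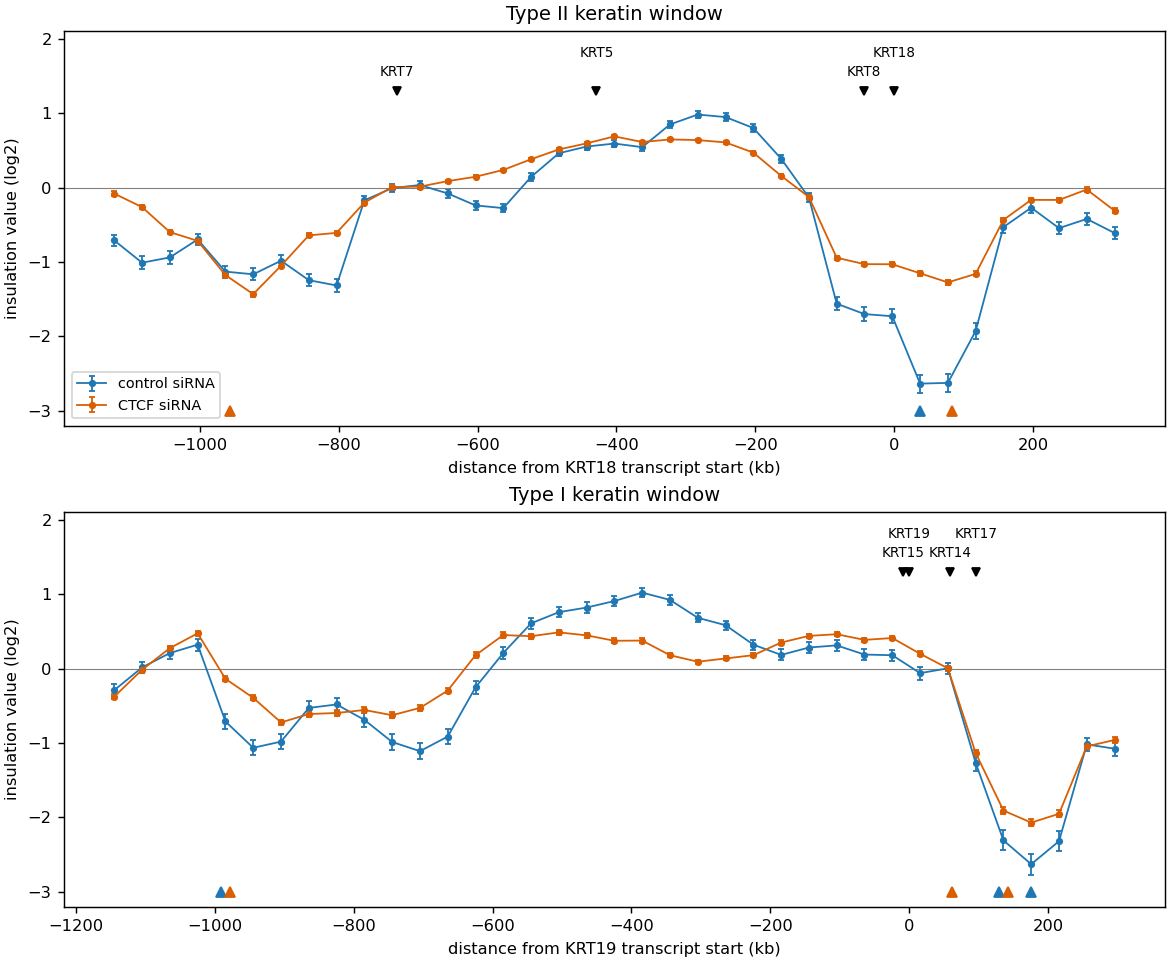
Insulation value (log2) of each 40 kb bin in control (blue) and CTCF siRNA (orange) with counting SD bars, against distance in kb from the KRT18 (upper) or KRT19 (lower) transcript start, with black triangles at member genes and coloured triangles at TAD edges of each list (edges in both lists drawn side by side). The bin after KRT18 goes from -2.63 to -1.15, whereas the minimum after KRT17 is at -2.63 in control and -2.07 in CTCF siRNA.

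The border after KRT18 had the largest change of the 7 TAD edges in the windows. In the bin of the control edge, between KRT18 and EIF4B, a translation initiation factor gene, 149 contacts crossed against 411 expected in control, and 2697 against 1796 in CTCF siRNA. Within the flanks there were 2841 against 1262 and 17766 against 5325. The insulation value was -2.63 ± 0.12 in control, and 0.0276% of all bins were as low. It was -1.15 ± 0.03 in CTCF siRNA, where 1.91% were as low. The change was 1.48 ± 0.12, and 0.192% of bins changed as much. The bin of the CTCF siRNA edge, that of EIF4B, went from -2.62 to -1.27. The edge thus stayed in both lists while contacts across it rose. Over the 3395 control edges with a value the median change was 0.48, with quartiles of 0.19 and 0.76. Over the 2606 edges of the CTCF siRNA list with a value it was 0.13, with quartiles of -0.19 and 0.45.

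The border after KRT17 changed less. In the bin of the edge at 39.82 Mb, which holds both printed type I matches, 122 contacts crossed in control and 1149 in CTCF siRNA. Insulation went from -2.31 ± 0.13 to -1.91 ± 0.04, a change of 0.40 ± 0.14. In the bin of the control edge at 39.86 Mb, with EIF1, GAST and HAP1, it was -2.63 ± 0.14 and -2.07 ± 0.05, a change of 0.56 ± 0.15. The control values of the 2 borders were alike, and after CTCF siRNA the one after KRT17 was lower, with 0.0811% of bins as low. The edge at 39.74 Mb in the CTCF siRNA list, at KRT14, had 0.00 in both maps.

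The left edges differed from each other. At the gained edge in ACVR1B, whose bin holds 3 motif matches, insulation was -1.13 ± 0.08 and -1.18 ± 0.03 respectively, a change of -0.05 ± 0.09. The lowest control value left of KRT80 was -1.32 in the bin directly before that gene, and this bin went to -0.61 after CTCF siRNA. The lowest CTCF siRNA value was -1.43 in the bin of TAMALIN and NR4A1, which had -1.17 in control. At 38.70 Mb in the type I window, in the CCR7 bin, where no match was found, the value went from -0.71 ± 0.10 to -0.14 ± 0.04, and in the next bin from -1.06 to -0.39.

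Among pairs of bins with at least 20 contacts expected in each map, 9 of 86 in the type II window rose by at least 0.5 on the log2 scale and 24 fell by as much. In the type I window 9 of 52 rose and 6 fell. Over 59058 autosomal pairs at up to the same distance 9.82% rose and 9.89% fell. The largest rise in the type II window was between the KRT78 bin and the bin of TNS2 and SPRYD3, across the border after KRT18, with 4 contacts against 22.1 expected in control and 100 against 148 in CTCF siRNA, a ratio of 3.75 (1.42 to 14). The next were the bin after KRT18 with TNS2 and SPRYD3, at 1.82 (0.787 to 5.16), and KRT85 with KRT82 and KRT75, at 1.72 (1.07 to 2.96).

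The largest falls in the type II window lay to the left. They were ACVR1B with NR4A1 and SMIM41, at 0.392 (0.273 to 0.574), the bin before KRT80 with the hair keratin KRT85, at 0.395 (0.308 to 0.512), and TAMALIN and NR4A1 with SMIM41, at 0.410 (0.317 to 0.538). In the type I window the 3 largest rises joined the bin of SMARCE1, a chromatin remodelling gene, to bins of IGFBP4 and TNS4, of CCR7, which holds the edge at 38.70 Mb, and of TNS4. Their ratios were 2.23 (1.21 to 4.57), 2.09 (1.21 to 3.91) and 2.02 (1.12 to 4.0). The largest falls were SMARCE1 with KRT25, at 0.550 (0.356 to 0.868), SMARCE1 with KRT222, at 0.574 (0.389 to 0.857), and HAP1 and JUP with JUP and P3H4, at 0.618 (0.471 to 0.822).

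Contacts beyond 2 Mb on the same chromosome were split by gene density. The measure is the log2 of contacts over expected with gene-dense 1 Mb regions, those ranked highest by number of protein-coding genes, against gene-poor ones, 38 regions in each class on chromosome 12 and 21 in each on chromosome 17. KRT8 and KRT18 had 1.46 ± 0.33 in control and 1.07 ± 0.17 in CTCF siRNA. The bins from KRT75 to KRT78 had 0.50 ± 0.12 and 0.53 ± 0.06, and EIF4B to ESPL1 had 1.08 ± 0.16 and 1.06 ± 0.08. KRT8 and KRT18 differed from the genes to their right by about the counting SDs or less in both maps. They lay above the block from KRT75 to KRT78 by more than the counting SDs in both maps. Of the nearest keratin bins, that of KRT76 and KRT3 had 0.91 ± 0.46 in control and 1.18 ± 0.21 in CTCF siRNA, that of KRT4 and KRT79 had 0.50 ± 0.44 and 0.85 ± 0.22, and the KRT78 bin had 0.15 ± 0.41 and 0.84 ± 0.19. In CTCF siRNA the gap to each of these 3 bins was close to or within the counting SDs.

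**Figure D4:**
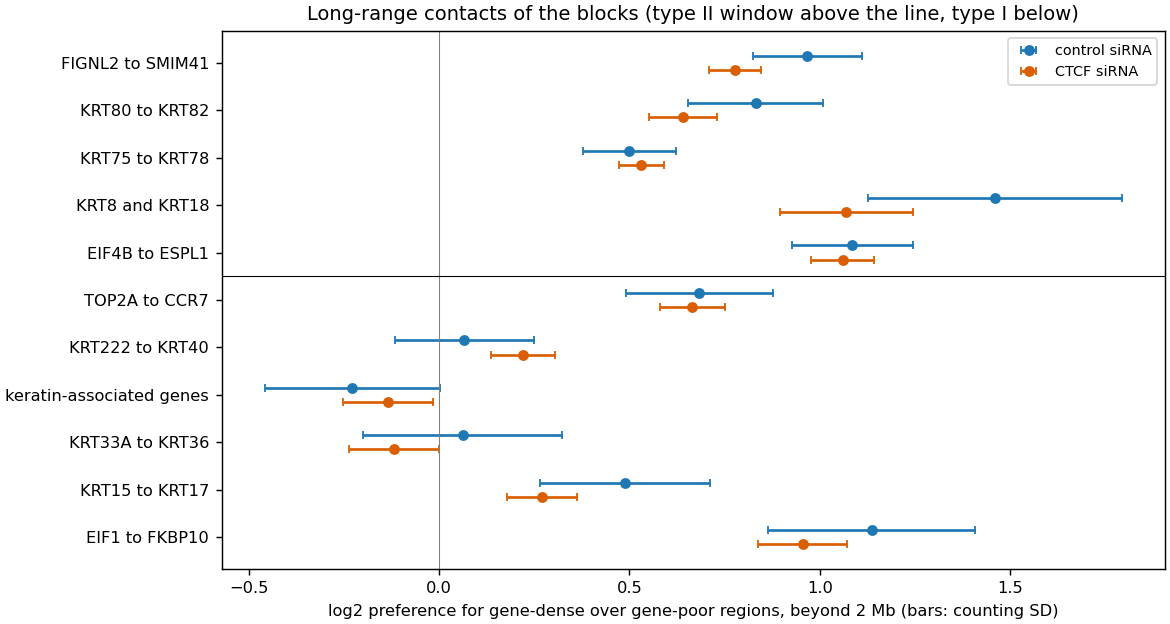
Log2 preference for gene-dense over gene-poor 1 Mb regions beyond 2 Mb for the blocks of the type II (above the line) and type I (below) windows in control (blue) and CTCF siRNA (orange), with counting SD bars. KRT8 and KRT18 lie beside EIF4B to ESPL1, and KRT15 to KRT17 lie between the keratin-associated genes and EIF1 to FKBP10. The block labelled KRT33A to KRT36 ends with KRT35.

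In the type I window KRT15 to KRT17 had 0.49 ± 0.22 in control and 0.27 ± 0.09 in CTCF siRNA. The keratin-associated genes had -0.23 ± 0.23 and -0.13 ± 0.12, and EIF1 to FKBP10 had 1.14 ± 0.27 and 0.96 ± 0.12. Single members were KRT8 at 1.41 ± 0.47 in control and 0.90 ± 0.26 in CTCF siRNA, KRT18 at 1.51 ± 0.47 and 1.21 ± 0.24, and KRT7 at 0.77 ± 0.42 and 0.83 ± 0.26. KRT19 had 0.53 ± 0.41 and 0.29 ± 0.16. Of the basal genes KRT5 had 1.05 ± 0.53 and 0.05 ± 0.21, KRT15 0.27 ± 0.48 and 0.38 ± 0.20, KRT14 0.89 ± 0.52 and 0.13 ± 0.20, and KRT17 0.34 ± 0.41 and 0.26 ± 0.19. The change for each block and member was within 2 counting SDs.

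Contacts between the chromosomes were few. Between the windows 18 contacts were counted in control against 12.2 expected, 1.48 times (0.877 to 2.34), and 61 against 41.9 in CTCF siRNA, 1.46 times (1.11 to 1.87), a ratio of 0.983 (0.573 to 1.77). Between the clusters there were 9 against 4.92 and 20 against 16.3. At this depth a change could not be resolved.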

How the data were processed

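Per the submitters' processing notes and the methods, reads were checked with FastQC 0.11.2, mapped to hg19 with Bowtie 1.1.0 within HiCUP, sorted with SAMtools 1.2, and duplicates were tagged with Picard 1.121. The authors pooled libraries into 40 kb matrices and called TADs from a directionality index. The deposited contact values are a signal, read-pair counts multiplied at some bin positions by a factor that goes with the position and is the same on every chromosome. Such factors occurred at the 37 positions of the type I window, from 0.622 to 1.63 in control and from 0.540 to 1.88 in CTCF siRNA, and at none of the type II window. The counts were recovered by division, and 99.99% in control and 99.997% in CTCF siRNA of the values came out whole within 0.0101 plus 0.05%. The columns of TAD starts and ends were used as deposited.

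A bin was usable with at least 10% of its chromosome's median count in both maps. Expected contacts combined distance decay per chromosome with iteratively balanced bin factors, except for insulation, where distance alone was used. Contacts within a bin were left out. Places of the same shape started at each autosomal bin in turn and needed at least 20 contacts expected in each map. They overlap and include the keratin positions themselves, so their shares are not frequencies among independent places. Boundaries within 40 kb were shared. Named pairs were the 3 largest rises and falls per window with at least 20 contacts expected in each map. Members, blocks and lists were chosen with earlier results of these data known. Genes came from GENCODE on GRCh37. Only protein-coding genes were listed for bins, so a gene-free bin is one without a protein-coding gene. Functions were tested on simulated maps. Python 3.11.15, numpy, pandas and scipy were used.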

Additional observations from a re-analysis of the deposited data

How the results depend on the processing

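No paired analysis was possible because each condition has 1 map, pooled by the authors from its libraries, and for the same reason no library could be left out. Of 130 alternative values for 32 results, 110 stayed within the counting interval or within 1.5 times the count, 18 moved and 2 turned. A value counted as turned only where the main interval excluded no difference, so other changes of direction are among those that moved or stayed. Without coverage factors KRT15 and KRT19 with KRT14 and KRT17 went from 0.907 to 1.23. KRT15 to KRT17 with EIF1 to FKBP10 went from 0.960 to 1.32 without them and to 1.06 with the deposited values. Leaving out the coverage factors of the bins had a large effect on several ratios of CTCF siRNA to control. It turned the ratio for contacts within the type II cluster to 1.61, and that of KRT8 and KRT18 with FIGNL2 to SMIM41 to 1.25. It also gave 2.02 for KRT8 and KRT18 with KRT75 to KRT78, 2.39 for KRT75 to KRT78 with EIF4B to ESPL1, 1.23 for KRT15 and KRT19 with KRT14 and KRT17, 0.851 for KRT15 to KRT17 with TOP2A to CCR7 and 1.32 for KRT15 to KRT17 with EIF1 to FKBP10. Within the type I cluster the ratio without the factors was lower, at 0.967. For KRT15 to KRT17 with the keratin-associated genes it was also lower, at 1.47. The cause of these shifts was not tested. Without the gene-free bin between cluster and neighbours the ratio was 0.915 for KRT8 and KRT18 with FIGNL2 to SMIM41, 2.21 for KRT75 to KRT78 with EIF4B to ESPL1 and 1.33 for KRT15 to KRT17 with EIF1 to FKBP10. The block values and their alternatives were chosen after seeing the data. With flanks of 200 kb, 2 bins of the type II window fell and 8 of the type I window rose past 0.5, and the change at the gained edge in ACVR1B was -0.38. With flanks of 800 kb, 2 bins of the type I window rose and 0 fell, and the changes at the edges after KRT18 were 1.08 and 1.01. With balanced counts 1 bin of the type I window fell. When boundaries had to touch, 1 was lost and 2 were gained, since the edges after KRT18 lie 40 kb apart. The cause of the changes with flank length was not tested. Depth limits all values that rest on few control contacts, among them the member pairs, single-bin long-range values and contacts between the chromosomes.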
